A study of Arabidopsis thaliana with 12 samples.

Results

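The probes described here gave no signal in young Arabidopsis thaliana plants and a signal in older ones. The members were chosen by the measured values themselves: a probe was taken when its deposited intensity was exactly 0 in all 6 samples of plants aged 2 weeks and above 0 in at least 3 of the 6 samples of plants aged 4 weeks. Of the 3439 probes with deposited values, 75 met this rule, which is 2.18% of them. Their numbers run from 1 to 4607, so some numbers are absent. Shares of the array given below are shares of these 3439 probes. All 12 samples were total RNA of wild-type plants of the ecotype Columbia 0, the common laboratory strain, with no mutation or treatment named for either age. The labels give neither the organ nor the growth conditions, nor how many plants made a sample, nor whether the 6 samples of an age came from separate plants.

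An Arabidopsis plant first makes a rosette of leaves and later, depending on day length, changes to the making of stems and flowers. Genes can be switched on during this change in the leaf itself, or because a new organ or cell type has appeared. In RNA of whole tissue, fewer cells of a type and less RNA per cell cannot be told apart. A value of 0 on an array is a limit of the measurement rather than proof that a transcript was missing. The labels do not say if 0 stands for a failed spot or for a signal that did not exceed background.

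The scale of the intensities differed between the ages. The array medians ran from 0.0946 to 0.116 in the younger samples and from 0.39 to 0.445 in the older ones, on a scale whose top is 100. Between 16.2% and 20.2% of the probes of an array stood at 0 at 2 weeks, and between 12.2% and 13.7% at 4 weeks. In the deposited values, 56.5% of all probes were higher in every sample at 4 weeks than in any at 2 weeks. The members' difference between the ages was used to choose them, so it is described below without a test. The part of the scale in the members' 0 values at 2 weeks was not tested.

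Of the members, 57 were above 0 in all 6 samples at 4 weeks, 8 in 5 samples, 6 in 4 samples and 4 in 3 samples. Across the array, 82.1% of probes were above 0 in all 6 samples at 4 weeks, and of the 2998 probes that, like the members, were above 0 in at least 3 of them, 94.2% were. The rule used these values, and nothing is read from the difference. In all, 236 probes, or 6.86% of the array, stood at 0 in the whole 2-week group. Of these 236, the 75 members make up 31.8%, a further 37 were above 0 in 1 or 2 samples at 4 weeks, and 124 stayed at 0 throughout.

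At the cut of 3 samples, the same rule with the ages exchanged found fewer probes. In that direction 20 probes, or 0.582% of the array, were above 0 in at least 3 samples at 2 weeks and at 0 in all 6 at 4 weeks. Of those 20, 13 were above 0 in just 3 samples at 2 weeks and 2 in all 6. That was 7.27% of the 275 probes that stood at 0 in the whole 4-week group. The order of the counts depended on the cut. With at least 1 sample above 0, the rule gave 112 probes and the exchanged rule 151. The difference between the counts was not tested.

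The 4-week signals of the members lay mostly in the lower part of the array's range. Signals of different probes depend on the probe, so they do not rank the amounts of RNA, but they do show how far a signal lay above 0. The mean 4-week intensity of a member ran from 0.0156 to 1.47, with a median of 0.232. Over all probes the median was 0.421 and the maximum 100, but these include probes at 0 at 4 weeks, which the rule keeps out. Among probes above 0 in all 6 samples at 4 weeks, the median was 0.299 for members and 0.514 for the array. The rule also asked for 0 at 2 weeks, and its part in the members' low level was not tested. Placed by percentile within each 4-week array, the members had a median of 31.9 and a range from 10.3 to 93.9. In the bins between the 10th and the 30th percentile lay 36 of the 75, that is 16 from 10 to 20 and 20 from 20 to 30. At the other end, 21 lay above the 50th percentile, 7 above the 75th and 2 above the 90th.

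After the 12 arrays had been brought to one distribution by quantile normalization, 55 of the 75 lay above the floor, an intensity of 0.0152, in all samples at 4 weeks. Together the 75 probes held between 0.711% and 0.865% of the summed intensity of a 4-week array.

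The array's annotation gave a single gene for 14 of the 75 probes (18.7%), several genes for 17 (22.7%) and none for 44 (58.7%). Over the whole array these shares were 20.1%, 25.3% and 54.6%. The 14 named genes are taken below by what is known of their products in plants. Their 2-week values were 0 in each of the 6 samples and are not repeated. Errors are SDs over the 6 samples at 4 weeks.

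Among the named genes, 1 belongs to plant immunity. AT1G72890 encodes a protein of the TIR-NBS class, relatives of the receptors with which plants recognise pathogens inside their cells. Its intensity at 4 weeks was 0.277, 0.302, 0.347, 0.268, 0.347 and 0.339 in samples 1 to 6. No sample stood apart, and the mean of 0.313 ± 0.036 had the smallest spread among the 10 named genes above 0 in all 6 samples, at 11.5% of the mean. Against the floor, the normalized mean of the logarithms at 4 weeks was at least 12.6-fold higher.

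The group of mitochondrial and energy-related proteins held 3 named genes. ETFQO encodes the electron-transfer flavoprotein:ubiquinone oxidoreductase, which passes electrons from the breakdown of branched-chain amino acids to the respiratory chain when sugar is short. Its values were 0.159, 0.172, 0.0879, 0.153, 0.0801 and 0.095, so samples 1, 2 and 4 were the higher ones and 3, 5 and 6 the lower. The mean was 0.124 ± 0.0409.

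AT4G31930 encodes a protein of the mitochondrial glycoprotein family. It stood at 0.205, 0.155, 0.291, 0.281, 0.236 and 0.22, with samples 3 and 4 highest and a mean of 0.231 ± 0.0504. AT4G17260 encodes a lactate dehydrogenase, the enzyme that reduces pyruvate to lactate when oxygen is scarce. Its values were low in all samples, at 0.0724, 0.0904, 0.109, 0.0995, 0.118 and 0.0498, with a mean of 0.0898 ± 0.0251. At 4 weeks this gene lay near the 18.7th percentile of the array.

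Glycosyltransferases of the exostosin family, which work on cell-wall and protein-bound sugars, were represented by AT3G57630 and AT4G38040. AT3G57630 adds arabinose to extensins, the structural glycoproteins of the cell wall. It measured 0.149, 0.0768, 0.21, 0.177, 0.083 and 0.0857, with samples 1, 3 and 4 above the other 3 and a mean of 0.13 ± 0.0566. AT4G38040 measured 0.202, 0.142, 0.185 and 0.177 in samples 1 to 4, 0.0217 in sample 5 and 0 in sample 6. Samples 5 and 6 thus lay well below the other 4.

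In the chromatin and nuclear group, AT1G56460 encodes a protein with a HIT-type zinc finger and a PAPA-1-like region, a kind found in chromatin remodelling complexes. Its values were 0.22, 0.118, 0.0956, 0.0587, 0.184 and 0.178, lowest in sample 4 and highest in sample 1, with a mean of 0.142 ± 0.0614. AT1G50770 belongs to the plant mobile domain family, whose domain is shared with certain transposons. It was above 0 in 5 samples, at 0.12, 0.106, 0.123, 0.553 and 0.115, and at 0 in sample 6. Sample 4 alone was far above the rest, and the mean of 0.17 ± 0.193 rests on it.

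Of the enzymes of plastids and membranes, AT1G32220 encodes a protein with an NAD(P)-binding fold that is found in plastoglobules, the lipid droplets of the chloroplast. It was at 0 in samples 2 and 4, at 0.112 in sample 1 and 0.03 in sample 3, and at 0.279 and 0.315 in samples 5 and 6. Samples 5 and 6 were therefore above the other 4. AT2G03140, of the alpha/beta-hydrolase family, measured 0.0893, 0.152, 0.0763, 0.135, 0.0533 and 0.0515, with the opposite order, samples 5 and 6 being lowest. Its mean was 0.093 ± 0.0422.

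The remaining 4 named genes are given without a role. AT1G07040 had the highest signal of the 14, at 0.555, 0.542, 0.643, 0.56, 1.06 and 0.958. Samples 5 and 6 were clearly above the other 4, and the mean was 0.719 ± 0.229, at the 66.6th percentile of the array. It was at least 30.4-fold higher at 4 weeks against the floor used here. AT4G09970 measured 0.169, 0.163, 0.179, 0.184, 0.118 and 0.161, a mean of 0.162 ± 0.0234, with sample 5 lowest.

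AT3G17950 measured 0.0444, 0.155, 0.0451, 0.148, 0.154 and 0.284. Samples 1 and 3 were low, sample 6 was high, and the highest value was 6.41 times the lowest. AT2G26110 lay at the edge of the rule, above 0 in 3 samples only, at 0.0732, 0.0443 and 0.0157 in samples 3, 4 and 5. For this gene 4 of the 6 normalized values at 4 weeks were at the floor, and the bound on its fold, 1.28, is close to no change.

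Because each 2-week value was 0, a fold is only a bound against the floor. It holds only where a 0 stands for a signal at or under the floor. A failed spot would give no bound, and the labels do not tell the 2 apart. For 13 of the 14 named genes the bound was at least 2-fold, and for AT1G07040 and AT1G72890 at least 10-fold. The bound depends on where that floor is set. Raised to the 5th percentile of the positive normalized values, 0.056, it left AT1G07040 at least 8.24-fold, AT1G72890 at least 3.41-fold and AT4G31930 at least 2.41-fold higher, and the other 11 below 2-fold. Over all 75 probes, 69 had a bound of at least 2-fold and 31 of at least 10-fold with the main floor.

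The brightest members are among the unnamed ones. Probe 2882, not listed in the annotation, stood at 2.25, 2.25, 0, 0.278, 1.8 and 2.22, so samples 3 and 4 lay far below the other 4. Probe 3503, also not listed, ran from 0.952 in sample 1 to 1.68 in sample 6, with a mean of 1.41 ± 0.273. Its normalized fold bound, 70.5, was the highest of the 75. Probe 2399, which matches several genes, was the steadiest, at 1.06, 1.01, 0.969, 1.1, 1.05 and 1.08, with an SD of 4.59% of its mean.

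Spread between samples was larger for the members than for the array. Over the 57 probes above 0 in all samples at 4 weeks, the SD was 27.9% of the mean in the median probe, with a range from 4.59% to 99.2%. Over the 2823 probes of the whole array above 0 in all samples at 4 weeks, the median was 18.3%. Members were also dimmer, with a median percentile of 37.4 against 58.6 for those 2823 probes, and the part of brightness in the spread was not tested.

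At 4 weeks samples 5 and 6 stood apart from the other 4, over the whole array as well as over the members. Between samples 3 and 4, the median absolute log2 difference over the 57 probes was 0.18, between 1 and 2 it was 0.24, and between 5 and 6 it was 0.31. Samples 1 and 2 differed from samples 3 and 4 by 0.24 to 0.29, and samples 5 and 6 differed from samples 1 to 4 by 0.48 to 0.59. Over the 2823 probes samples 5 and 6 differed from the other 4 by 0.33 to 0.38, and samples 1 to 4 among themselves by 0.14 to 0.24. Samples 5 and 6 were both highest in 9 of the 57 (15.8%, against 20.9% of the 2823 probes) and both lowest in 13 (22.8%, against 26.5%). Samples 3 and 4 were both highest in 13 (22.8%, against 11.1%) and both lowest in 4 (7.02%, against 20.8%). Samples 1 and 2 were both highest in 5 (8.77%, against 20.2%) and both lowest in 4 (7.02%, against 6.52%). What the numbers stand for is not given in the labels, so the samples of an age may be fewer than 6 independent units.

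The 0 values left at 4 weeks were spread over the samples. Between 67 and 74 of the 75 probes were above 0 in a sample, lowest in sample 1 and highest in sample 5. The 18 members with at least 1 value of 0 at 4 weeks showed 13 different sets of samples at 0. No set held more than 2 members.

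Leaving out samples shows how the choice rests on them. The cut stayed at 3 samples above 0, so it asked for 3 of the 4 samples kept. When samples 1 and 2 of both ages were left out, the rule chose 77 probes, and 72 of them (93.5%) were at 0 in both left-out samples at 2 weeks. Without samples 3 and 4 it chose 82, and 70 (85.4%) were at 0 in both. Without samples 5 and 6 it chose 94, and 66 (70.2%) were at 0 in both. A chosen probe at 0 in both left-out 2-week samples met the full rule. These shares therefore count members again and are no independent check. Of all probes, 15%, 13.8% and 11% were at 0 in those 2-week samples. Of the probes at 0 in the 4 samples kept at 2 weeks, whatever their 4-week values, 81.9%, 86.1% and 65.4% were. Both left-out 4-week samples were above 0 for 87%, 86.6% and 94.7% of the chosen probes, against 85.1%, 84.8% and 85.5% of all probes. These are unlike sets, since the chosen probes already had to be above 0 in kept 4-week samples. Of the 2998 probes above 0 in at least 3 of all 6 samples at 4 weeks, 94.2% were above 0 in all 6. Nothing is read from the 4-week shares.

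The samples were left out in the same way with the ages exchanged, again with the cut at 3 of the 4 samples kept. Without samples 1 and 2, 3 and 4, or 5 and 6, the exchanged rule chose 10, 10 and 15 probes. Of these, 2, 3 and 3 kept the pattern in all 4 left-out samples, where 63 of 77, 62 of 82 and 62 of 94 did so under the rule itself. Of the 20 probes of the exchanged rule, 13 were above 0 in just 3 of 6 samples, whereas 57 of the 75 members were above 0 in all 6. A cut of 3 of 4 was thus harder to pass for the former, and the shares are not on equal terms. Probes that kept the pattern were by construction among the 75 or the 20, so the shares are no independent check of either rule. The difference between these shares was not tested.

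The probes just outside the rule fall on both of its sides. At 0 in all 2-week samples but above 0 in just 2 samples at 4 weeks were 7 probes, none with a single gene, and their mean 4-week intensity was at most 0.0212. The 4 members above 0 in just 3 samples had means from 0.0156 to 0.12. Above 0 in exactly 1 sample at 2 weeks and in all 6 at 4 weeks were 20 probes, with mean 4-week intensities from 0.0386 to 1.61. That 1 sample was number 6 for 9 of the 20 and number 5 for 5.

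Single genes were given for 6 of these 20. DRT101, an enzyme of amino sugar metabolism named for tolerance of DNA damage, measured 0.0055 in 2-week sample 4 and 1.29 ± 0.335 at 4 weeks. AT2G46190 measured 0.00988 in sample 6 and 0.652 ± 0.214 at 4 weeks. AT1G62760, of the family of invertase and pectin methylesterase inhibitors, measured 0.0115 in sample 6 and 0.425 ± 0.1 at 4 weeks. AT2G37000, a TCP transcription factor gene, measured 0.0237 in sample 5 and 0.189 ± 0.126 at 4 weeks. AT2G24810 and AT5G15280, the latter a pentatricopeptide repeat protein gene, measured 0.00473 in sample 1 and 0.0317 in sample 6, and 0.125 ± 0.0581 and 0.109 ± 0.0273 at 4 weeks. For each of the 20, the single 2-week reading, between 0.000276 and 0.355, is what kept it outside.

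Some members had neighbouring probe numbers. Of the 75, 23 (30.7%) had another member at the next lower or next higher number, whereas 3% of all probes on the array lay next to a member. Of all 236 probes at 0 in the whole 2-week group, 58 (24.6%) lay next to another of them, against 9.48% of all probes. Of the 20 probes of the exchanged rule, 2 lay next to each other (10%, against 0.785% of all probes next to one of them), and of the 124 probes at 0 in all 12 samples, 9 did (7.26%, against 5.26%). The 23 formed 10 runs, 8 of them pairs, the longest from probe 812 to probe 815. Of the 20 probes missed through 1 sample at 2 weeks, 5 (25%) also lay next to a member, among them those of AT1G62760 and AT2G46190. The labels do not say whether numbers follow the position of a spot on the array.

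Within some of the 10 runs the 4-week samples moved together, and these are described as examples. Samples 5 and 6 were both highest in 20.9% of the array's 2823 probes above 0 in all samples at 4 weeks. Likeness between neighbours was not set against likeness between other probes. Probes 812 to 815 were all highest in sample 6, and all but probe 815 had sample 5 next. Probe 812 measured 0.165, 0.141, 0.154, 0.167, 0.614 and 0.628. Probe 813, which matches several genes, measured 0.923, 1.05, 0.804, 0.853, 1.85 and 2.04, so samples 5 and 6 were above the other 4 for both. Probe 814 is that of AT1G32220, described above. Probe 815 measured 0.0487, 0.339, 0, 0.199, 0.325 and 0.623, with sample 6 far above the rest.

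Probes 2882 and 2883 were both at 0 in sample 3, and probe 2883 was at 0 in sample 4 too. Probe 2883 measured 0.478, 0.296, 0.0945 and 0.321 in samples 1, 2, 5 and 6. Probes 266, 267 and 268, the last being that of AT4G38040, were all low in sample 5, at 0.0496, 0.145 and 0.0217. In sample 6 they parted, at 0.318, 0.192 and 0. The probes of AT1G07040 and AT3G17950 are neighbours as well, numbers 1846 and 1847, and so are those of AT1G50770 and AT4G09970, numbers 3568 and 3569. In the last pair the profiles differed, since sample 4 stood apart for AT1G50770 and not for AT4G09970. The part of array position in these runs was not tested.

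Marker genes for the organ could be looked up only in small part. Of 74 loci in 7 lists for photosynthesis, flowering time, floral organs, leaf senescence, defence, root and cell division, 3 had a probe of their own, all of them photosynthesis genes, and none was a member. Those 3, PSAN, LHB1B2 and PRK, were above 0 in all samples of both ages. PSAN, a photosystem I subunit, measured 10.7 to 17.7 in the younger and 2.3 to 3.19 in the older samples. LHB1B2, a light-harvesting antenna gene, measured 32.5 to 56.3 and 9.06 to 15.3. PRK, the phosphoribulokinase of carbon fixation, measured 3.18 to 4.7 and 0.786 to 1.09. These are deposited values, whose scale differed between the ages, so the sizes of these differences are not read as changes in expression. All 3 genes were lower in the older samples, whereas the array medians were higher there. The part of the scale in these differences was not tested. For the other 6 lists no probe of a single gene was there to read.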

How the data were processed

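Total RNA of 6 samples per age was measured on an expression array. The values are the deposited intensities, 1 per probe and sample, linear, never negative and topped at 100 in each array; the correction and scaling used by the authors are not given in the sources used here. The number of arrays limits the precision. Samples were grouped by title. Members were counted on the deposited intensities. For fold bounds, the 12 arrays were quantile normalized, a floor was set at the 1st percentile of the positive normalized values, and means of log2 values were compared. Since the rule uses both ages, no test of the ages was run on the members; Dixon's outlier test was applied within the 4-week group. Names came from the array's annotation table; 690 of 692 single-gene probes were matched to RefSeq's table of assembly TAIR10.1, used for names only. Each member with 1 gene is named; edge probes follow a stated rule. The table gives no descriptions, so roles are textbook background. Members and lists were chosen with earlier results of these data known. Python 3.11.15, numpy 2.4.6 and pandas 2.3.3 were used, and the selection was tested on simulated data. Alternatives covered the detection limits, the floor, the scaling and each left-out sample.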

Additional observations from a re-analysis of the deposited data

Results flagged for a closer look

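Each named gene's 6 values at 4 weeks were put to Dixon's outlier test. Its rate of about 1 of 20 groups passing by chance is for independent, normally distributed values. Here the rule used these values, some genes hold values of 0, and the samples may not be independent, so that rate need not hold. Of 14 genes, 2 had an outlying sample. AT1G50770 was highest in sample 4, at 0.553 against 0.123 in the next sample. AT4G09970 was lowest in sample 5, at 0.118 against 0.161.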

How the results depend on the processing

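The count of 75 stayed within 1.5 times under all alternatives tried: 112, 82, 71, 65 and 57 with at least 1, 2, 4, 5 and 6 samples above 0 at 4 weeks, 108 with 0 in at least 5 samples at 2 weeks, and 71 to 86 without single samples. Wherever samples were left out, the cut stayed at 3 samples above 0. The exchanged count of 20 depended on the settings, and with at least 1 sample above 0 it exceeded the count under the rule. It became 151, 57, 7, 3 and 2 with at least 1, 2, 4, 5 and 6 samples above 0, 5 with values above the array's 5th percentile only, 41 with 0 in at least 5 samples, 12 to 28 without single samples, and 10 without samples 1 and 2 and also 10 without samples 3 and 4. The members' median 4-week level, 0.232 as deposited, was 0.141 after quantile normalization and 0.481 after division by the median of an array's positive values. As a percentile it was 31.9. These are different scales. Without single samples the deposited level was 0.229 to 0.242. The number of named genes with a bound of at least 2-fold fell from 13 to 3 with the higher floor and was 14 on the deposited and the median-divided values, where the floor is the lowest positive signal; it stayed at 13 without single samples. No paired analysis was possible because the difference between the ages chose the members and is given without a test; samples of one number were left out of both ages together instead, which gave counts of 76 to 82.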
